A study of Mus musculus with 24 samples.

Results

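The fibrillar collagens described here are 6 genes of the mouse, Col1a1, Col1a2, Col3a1, Col5a1, Col5a2 and Col11a1, chosen by symbol from a table of read counts over 41128 genes in 24 aortas. All 6 were in the table and all 6 passed the filter on low counts, which left 16316 genes. The mice were 5 months old and came from the strain B6,129S6-Ppp3cbtm1Jmk/J. They were wildtype (WT) or Ppp3cb KO, that is, without the catalytic beta subunit of the phosphatase calcineurin. Treated mice carried osmotic minipumps that released angiotensin II (AngII), a hormone that raises blood pressure, at 500 ng per kg body weight per min for 4 weeks. The other mice are labelled control, and the labels do not say whether they carried a pump. Both genotypes, both treatments and both sexes gave 8 groups of 3 mice, with 1 library of total RNA from the aorta per mouse. The labels name no Cre line, no sorting of cells and no pooling of mice.

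A fibrillar collagen molecule is a triple helix of chains in which glycine fills the first place of every Gly-X-Y repeat. Type I collagen combines the products of Col1a1 and Col1a2, type III collagen is built from Col3a1 alone, and these types form most of the fibril mass in the wall of a large artery. Type V collagen, from Col5a1 and Col5a2, and type XI collagen, to which Col11a1 contributes, are minor chains that start fibrils and limit their diameter, with type XI best known from cartilage. In arteries the chains are made mainly by adventitial fibroblasts and smooth muscle cells, and their deposition stiffens the wall.

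The 6 genes share a gene structure that shows this repeat directly. In the reference annotation (GENCODE M21 on GRCm38, the same assembly as mm10), Col1a1 lies at chr11:94936224-94953042 on the plus strand, Col1a2 at chr6:4504814-4541544 (plus), Col5a1 at chr2:27886425-28039514 (plus) and Col11a1 at chr3:114030540-114220718 (plus). Col3a1 at chr1:45311538-45349706 (plus) and Col5a2 at chr1:45374321-45503282 (minus) are neighbours whose 3′ ends face each other across 24614 bp. The principal transcripts hold 51 exons in Col1a1 and Col3a1, 52 in Col1a2, 54 in Col5a2, 66 in Col5a1 and 67 in Col11a1. Of these exons, 21 in Col1a1, 24 each in Col1a2, Col3a1 and Col5a2, 29 in Col5a1 and 31 in Col11a1 are exactly 54 bases long. Exons of 45, 54, 99, 108 or 162 bases, all multiples of the 9 bases that encode 1 Gly-X-Y repeat, made up from 68.2% (Col5a1) to 82.7% (Col1a2) of each gene's exons. The same lengths made up 2.78% of 209051 exons in the principal transcripts of 21888 other protein-coding genes. One 54-base coding exon from the middle of each gene is printed below, 5′ to 3′ on the coding strand. These exons show the repeat in the chains compared here, with the glycine codon that opens each repeat in capitals.
Col1a1: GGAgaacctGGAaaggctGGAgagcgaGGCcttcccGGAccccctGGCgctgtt
Col1a2: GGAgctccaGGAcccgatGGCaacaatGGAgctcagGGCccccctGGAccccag
Col3a1: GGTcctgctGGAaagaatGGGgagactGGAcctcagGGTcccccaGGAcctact
Col5a1: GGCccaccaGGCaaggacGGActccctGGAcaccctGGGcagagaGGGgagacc
Col5a2: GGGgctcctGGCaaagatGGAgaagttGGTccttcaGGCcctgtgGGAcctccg
Col11a1: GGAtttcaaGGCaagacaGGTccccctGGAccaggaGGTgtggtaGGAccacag
At a Y place the Col11a1 exon holds a further glycine codon, gga, left in lower case. Each of these exons holds 6 glycine codons (GGN) in capitals, 1 every 9 bases. They are exon 26 of Col1a1 (chr11:94944355-94944408), exon 27 of Col1a2 (chr6:4524117-4524170), exon 26 of Col3a1 (chr1:45334761-45334814), exon 37 of Col5a1 (chr2:27998726-27998779), exon 29 of Col5a2 (chr1:45403116-45403169) and exon 38 of Col11a1 (chr3:114151375-114151428). This spacing held in all exons of 54 bases of 5 genes and in 23 of the 24 of Col1a2.

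Promoter sequence, 250 bases before to 50 after the start site, was matched for 4 of the 6 genes in RefSeq (GRCm38.p6): Col1a2, Col3a1, Col5a1 and Col11a1. The windows of Col1a2 (chr6:4505368-4505667) and Col3a1 (chr1:45311288-45311587), 2 chains that rose together with AngII, and of Col11a1 (chr3:114030290-114030589), for which no change was detected, are printed 5′ to 3′ on the plus strand. Capitals mark every match of CCAAT (read as ATTGG on the other strand) and of TATAAA.
Col1a2: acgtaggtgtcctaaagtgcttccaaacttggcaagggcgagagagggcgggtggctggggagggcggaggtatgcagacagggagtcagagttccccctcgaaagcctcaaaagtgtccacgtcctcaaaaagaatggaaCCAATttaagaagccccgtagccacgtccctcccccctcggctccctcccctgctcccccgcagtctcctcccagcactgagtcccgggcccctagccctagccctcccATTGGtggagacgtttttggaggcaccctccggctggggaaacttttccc
Col3a1: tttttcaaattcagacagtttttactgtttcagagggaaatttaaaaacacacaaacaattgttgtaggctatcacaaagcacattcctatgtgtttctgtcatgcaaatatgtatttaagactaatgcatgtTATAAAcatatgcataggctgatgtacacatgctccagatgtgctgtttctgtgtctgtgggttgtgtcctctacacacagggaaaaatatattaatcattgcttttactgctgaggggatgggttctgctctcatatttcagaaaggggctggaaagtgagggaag
Col11a1: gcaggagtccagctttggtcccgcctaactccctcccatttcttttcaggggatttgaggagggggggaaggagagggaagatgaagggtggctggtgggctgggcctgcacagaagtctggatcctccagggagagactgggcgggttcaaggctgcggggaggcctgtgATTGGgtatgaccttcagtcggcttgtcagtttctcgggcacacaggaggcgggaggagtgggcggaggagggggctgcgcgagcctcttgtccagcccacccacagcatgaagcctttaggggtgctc
CCAAT was found on either strand in 37.4% of 32851 promoter windows of the same length. The Col1a2 window holds 2 matches, starting at -109 and 1 relative to the start site, the Col11a1 window holds 1 at -79, and the Col3a1 and Col5a1 windows hold 0. TATAAA, found in 13.6% of all windows, was matched only in Col3a1, at -117. The Sp1-type box GGGCGG (35.7% of all windows) was matched 2 times each in Col1a2, Col5a1 and Col11a1 and 0 times in Col3a1. TGANTCA, the AP-1 motif (7.81% of all windows), had 0 matches in the 4 windows. GGAAA, the core of NFAT sites (61.3% of all windows), was matched 3 times in Col3a1, 2 times each in Col5a1 and Col1a2 and 0 times in Col11a1. The Smad-type box CAGAC (49.6% of all windows) was matched in all 4 windows, 2 times in Col3a1 and 1 time in each of the others. These matches describe letters in the windows.

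The libraries held 1523328 to 6352365 counts, with a median of 3835993. Ppp3cb itself stood at 28.1 to 69.4 counts per 1000000 counts (CPM) in the 12 WT libraries (median 39.5) and at 11.2 to 30.3 in the 12 KO libraries (median 20.2), so the genotypes overlapped only between 28.1 and 30.3. Col5a3, the third type V chain, lies on chromosome 9, one of the chromosomes without any counts in this table, and was not analysed here. The 3 KO control females stood apart from the other groups. Their olfactory and vomeronasal receptor genes summed to 1002 to 1992 counts per 1000000 protein-coding counts, against 111 to 1073 in the other 21 libraries, and they had the fewest counts, 1523328 to 2401264. The members' changes that rest on them are given with and without them or by sex, and the KO values of gene lists also by sex. The KO ratios between chains, and the levels and correlations over all 24 libraries, are given only with them.

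Col3a1, Col1a1 and Col1a2 were the major fibrillar transcripts of these aortas. Divided by the length of the principal transcript and averaged over all 24 libraries, Col3a1 stood at 210 ± 97.0, Col1a1 at 186 ± 101 and Col1a2 at 141 ± 60.2 CPM per kb (SD, n = 24). The type V chains followed with 48.1 ± 18.5 for Col5a1 and 35.1 ± 15.9 for Col5a2, and Col11a1 was the lowest at 0.496 ± 0.718 CPM per kb. The order was not the same in all libraries: Col3a1 was above Col1a1 in 20 of 24, Col1a1 above Col1a2 in 21 of 24 and Col5a1 above Col5a2 in 20 of 24. The SD over 24 libraries includes the differences between groups and does not measure the order within a library. Col1a2 was above Col5a1, and Col5a2 above Col11a1, in 24 of 24. The length chosen decides the first place, since dividing by the union of all annotated exons put Col1a1 (168 ± 91.1) above Col3a1 (119 ± 55.0) in 24 of 24. On that scale Col1a2 (60.7 ± 25.9) and Col5a1 (47.6 ± 18.3) were neighbours, with Col1a2 higher in 20 of 24. By CPM without length, Col3a1 ranked 27 and Col1a1 31 among 13386 protein-coding genes, Col1a2 ranked 57, Col5a1 123, Col5a2 292 and Col11a1 10049.

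**Figure D1:**
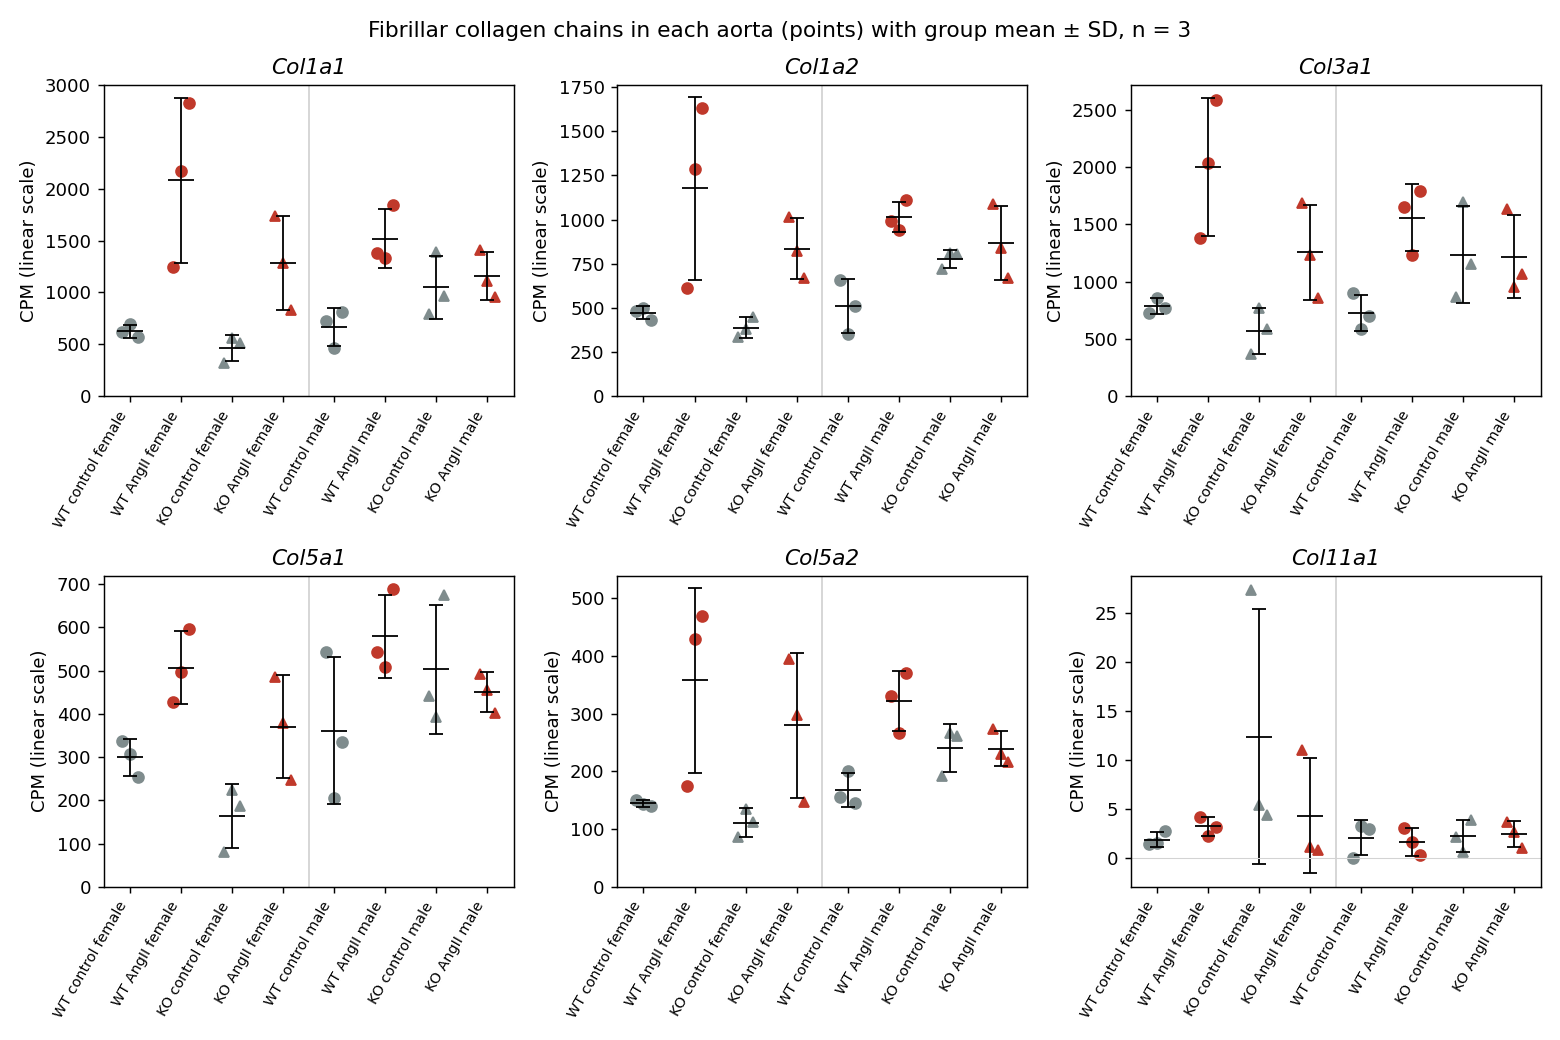
CPM of each fibrillar chain in each of the 24 aortas (linear axes, 1 panel per gene). Circles are WT and triangles KO, grey is control and red AngII, females stand left and males right of the vertical line, and bars give the group mean ± SD (n = 3). All 6 AngII values of Col1a1 and of Col3a1 in WT lie above all 6 control values, while in KO males control and AngII values overlap for every chain.

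In WT aortas, 4 weeks of AngII raised 4 of the 6 fibrillar chains at an adjusted p under 0.05: both type I chains, the type III chain and 1 of the type V chains. Over all 16316 genes tested this comparison called 34, or 0.208%, of which 30 were higher (0.184%). The median change of the 6 genes was 1.14 on the log2 scale, against -0.012 over all genes tested. The test was edgeR's quasi-likelihood test with Benjamini-Hochberg adjustment over all genes, with the change in females and the change in males averaged. In RNA from a whole aorta, a larger number of collagen-producing cells and more RNA per cell cannot be told apart, here and in all comparisons that follow.

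Col1a1, which encodes the major chain of type I collagen, stood at 616, 695 and 569.9 CPM in the 3 WT control females and at 721, 459.9 and 813 in the control males. With AngII it stood at 1246, 2171 and 2826 CPM in females and 1379, 1332 and 1847 in males. The lowest treated aorta was thus above the highest control, a separation in this direction seen in 0.386% of all genes tested. The change was 2.75-fold (log2 1.46 ± 0.23 SE, 95% interval 1.00 to 1.93, edgeR adjusted p = 0.00235), the second smallest p of all genes. Col1a1 kept its call in each of the 24 fits that left out 1 library, with log2 changes of 1.30 to 1.59.

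Col1a2, the partner chain of type I collagen, stood at 484, 501 and 429.8 CPM in control females and 659.8, 354 and 509.6 in control males. The AngII values were 612, 1288 and 1630 CPM in females and 994, 939 and 1110 in males. Only AngII female 1 (612) fell below the highest control (659.8). Col1a2 rose 2.23-fold (log2 1.16 ± 0.21 SE, edgeR adjusted p = 0.00957).

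Col3a1, the single chain of type III collagen, stood at 729, 861 and 774 CPM in control females and 900.5, 584 and 696 in control males. With AngII the values were 1384, 2040 and 2589 CPM in females and 1654, 1230 and 1792 in males. As for Col1a1, no treated aorta overlapped a control. Col3a1 rose 2.34-fold (log2 1.22 ± 0.23 SE, edgeR adjusted p = 0.0112).

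Of the type V chains, 1 of 2 was called. Col5a2 stood at 150.2, 144 and 139 CPM in control females and 155, 201 and 146 in control males. Its AngII values were 174, 430.1 and 469 CPM in females and 331, 266 and 370.0 in males. AngII female 1 was the lone treated aorta below a control (male 2, at 201), and Col5a2 rose 2.19-fold (log2 1.13 ± 0.22 SE, edgeR adjusted p = 0.0183).

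For Col5a1, which joins Col5a2 in the main type V heterotrimer, the control values were 336, 308 and 253 CPM in females and 543, 206 and 335 in males. With AngII they were 426.5, 497 and 594.9 CPM in females and 542, 508 and 689 in males. Control male 1 (543) lay above 4 of the 6 treated aortas. The change of Col5a1 was 1.65-fold (log2 0.72 ± 0.23 SE, 95% interval 0.25 to 1.19) and missed the threshold (edgeR adjusted p = 0.339). With limma-voom and library quality weights it passed (log2 0.75, adjusted p = 0.00261), in a fit that called 329 genes. Antisense transcripts overlap Col5a1 exons by 99 bp (2810430I11Rik) and 113 bp (Gm13372). They held 310 and 264 counts over all libraries, and whether reads were counted by strand is not given in the sources used here.

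Col11a1 rested on 0 to 43 counts per library. In WT it stood at 0 to 3.30 CPM in the 6 controls (median 2.13) and at 0.287 to 4.25 CPM in the 6 AngII aortas (median 2.68). The change was 0.20 ± 0.78 on the log2 scale (edgeR adjusted p = 1), with a 95% interval from -1.39 to 1.79, so a change of the size seen in the other chains was not detectable at this depth. WT control male 1 held 0 counts, which allows up to 3 counts (counting error only). That is 0.635 CPM over its unscaled total of 4724160 counts. With its TMM scaling factor of 0.7175, the bound is higher on the scale of the other CPM.

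The calls depended on single mice for 3 of the 4 genes. Leaving out WT control female 1, WT AngII female 3 or WT control male 2 in turn left 1 member called, Col1a1. Col1a2 and Col3a1 were called in 21 of 24 such fits and Col5a2 in 16 of 24. The log2 changes themselves ran from 0.99 to 1.31 for Col1a2, 1.09 to 1.33 for Col3a1 and 0.99 to 1.29 for Col5a2. The 8 libraries without which Col5a2 was not called were those 3, WT control females 2 and 3, WT control male 3, WT AngII female 2 and WT AngII male 3, with edgeR adjusted p values of 0.0531 to 0.144. Within females alone (3 against 3) the changes were 1.73 for Col1a1, 1.32 for Col1a2, 1.35 for Col3a1, 0.76 for Col5a1 and 1.31 for Col5a2, and within males 1.19, 1.00, 1.10, 0.68 and 0.95 in the same order. In neither sex alone was a member called, and edgeR called 0% of all genes there. The unadjusted p was under 0.05 for 5 of 6 members in each sex, against 3.12% of genes in females and 6.63% in males.

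Ratios between chains were compared within each aorta. Such ratios do not depend on how libraries are scaled, and were taken per kb of principal transcript and tested with an exact two-sided permutation test within sex (400 arrangements, smallest possible p = 0.005), adjusted over 10 tests. The ratio given for a group is its geometric mean, averaged on the log2 scale. Its level depends on the length chosen, while the log2 differences do not. By the union of all annotated exons, Col1a1 to Col1a2 in WT was 2.5 in controls and 3.1 with AngII. On that scale Col3a1 to Col1a1 in WT was 0.789 and 0.672. In WT the ratio of Col5a1 to Col1a1 went from 0.35 in controls (range 0.291 to 0.532) to 0.22 with AngII (range 0.149 to 0.277). The ranges did not overlap. The difference was -0.67 on the log2 scale, with the smallest p the test can give (exact p = 0.005, adjusted p = 0.05, at and not under the threshold). The ratio of Col1a1 to Col1a2, the partner chains of type I collagen, was 1.19 in WT controls and 1.48 with AngII (log2 difference 0.31, exact p = 0.02, adjusted p = 0.0667). In KO it was 1.12 and 1.28 (log2 difference 0.19, exact p = 0.24, adjusted p = 0.343). The ratio of Col3a1 to Col1a1 was lower with AngII in both genotypes, by the same amount at this precision: in KO it went from 1.27 to 1.08 (log2 difference -0.23, exact p = 0.02, adjusted p = 0.0667) and in WT from 1.26 to 1.07 (log2 difference -0.23, exact p = 0.1, adjusted p = 0.192). For Col5a1 to Col1a1 in KO the difference was -0.24 (exact p = 0.29, adjusted p = 0.363). For Col5a2 to Col1a1 it was -0.37 in WT (exact p = 0.105) and -0.18 in KO (exact p = 0.115), each with an adjusted p of 0.192. For Col5a1 to Col5a2 it was -0.30 in WT (exact p = 0.355, adjusted p = 0.394) and -0.06 in KO (exact and adjusted p = 0.755).

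**Figure D2:**
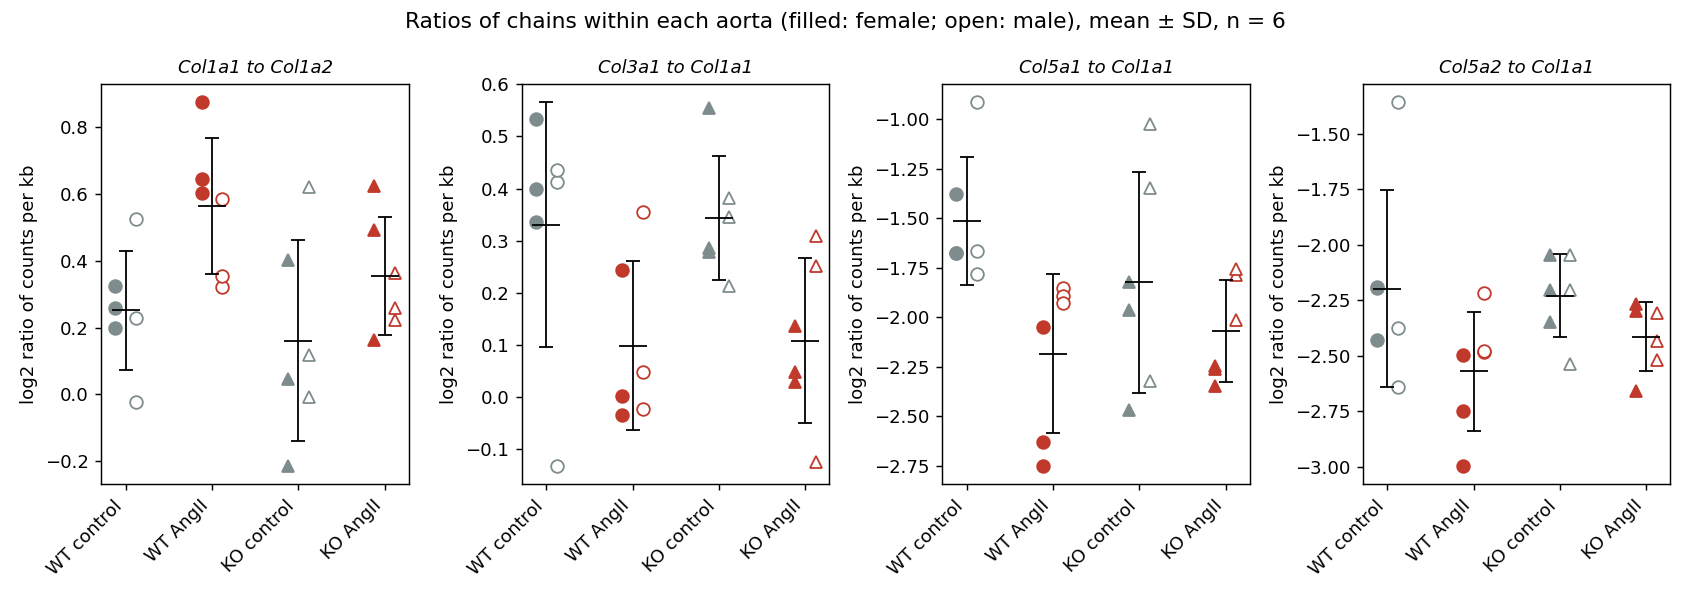
Log2 ratio of counts per kb between 2 fibrillar chains in each aorta, by genotype and treatment. Filled symbols are females and open symbols males, circles WT and triangles KO, and bars give the mean ± SD (n = 6). In the panel of Col5a1 to Col1a1, the 6 WT AngII aortas lie below the 6 WT controls, while the KO groups overlap.

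In KO aortas no fibrillar chain was called with AngII, and edgeR called 0% of all genes in that comparison. The smallest edgeR adjusted p over all genes was 0.106. DESeq2 called 17 genes and limma-voom 0, with 0 members in either, and edgeR without a count filter called Col1a1 among 85 genes. Of the 6 members, 5 had an unadjusted p under 0.05 and a higher mean, against 7.71% of all genes with such a p (4.21% with a higher mean), and the members' median change was 0.59 against 0.01 over all genes. Col1a1 stood at 318, 556 and 515 CPM in KO control females and 793, 1386 and 966 in KO control males, and with AngII at 1738, 1284 and 828.9 in females and 1406, 1109 and 956 in males. The treated females lay above the control females, and the treated males overlapped the control males. Such a separation of 3 treated from 3 control females was found in 6.85% of all genes tested and in 5 of the 6 members. The log2 change of Col1a1 was 0.81 ± 0.22 SE (edgeR adjusted p = 0.297).

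The other major chains had the same pattern. Col1a2 stood at 333, 379 and 449.5 CPM in KO control females and 719, 812 and 802 in control males, and with AngII at 1017, 824 and 667 in females and 1087, 836 and 671 in males. Col3a1 stood at 364, 586 and 766 in KO control females (lowest first), 862, 1696 and 1151 in control males, 1687, 1230 and 854.5 in AngII females and 1634, 954 and 1068 in AngII males. For both, AngII females lay above control females and AngII males overlapped control males. The log2 changes were 0.63 ± 0.21 SE for Col1a2 (edgeR adjusted p = 0.39) and 0.56 ± 0.23 SE for Col3a1 (edgeR adjusted p = 0.559).

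Among the type V chains in KO, Col5a1 had control values of 81.5 to 223 CPM in females and 394 to 674 in males, and AngII values of 248 to 484 in females and 402 to 492.5 in males. Col5a2 had control values of 86.0 to 135 in females and 192 to 267 in males, and AngII values of 146 to 395 in females and 216 to 274 in males. The female ranges were separate for both genes and the male ranges overlapped. The log2 changes were 0.51 ± 0.23 SE for Col5a1 (edgeR adjusted p = 0.625) and 0.66 ± 0.22 SE for Col5a2 (edgeR adjusted p = 0.411). Without the KO control females the KO response rests on males, where Col3a1 stood at -0.02, Col5a1 at -0.16 and Col1a1 at 0.14, and no member was called.

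Whether the response differed between genotypes was tested directly. The AngII response in KO minus that in WT was -0.66 ± 0.32 SE (95% interval -1.30 to -0.01) for Col1a1, -0.67 ± 0.32 for Col3a1, -0.53 ± 0.29 for Col1a2, -0.47 ± 0.31 for Col5a2, -0.21 ± 0.33 for Col5a1 and -0.88 ± 1.09 for Col11a1, on the log2 scale. All 6 were below 0, none was called (edgeR adjusted p = 1 for each), and 0% of all genes were called, as with DESeq2 and limma-voom. In edgeR's test before adjustment, Col1a1 (unadjusted p = 0.0465, adjusted p = 1) and Col3a1 (unadjusted p = 0.0439, adjusted p = 1) were under 0.05, as were 4.03% of all genes. Without the KO control females, where the KO response of males was set against the WT response of both sexes, the difference was -1.30 for Col1a1, -1.22 for Col3a1, -0.98 for Col1a2, -1.11 for Col5a2, -0.86 for Col5a1 and -0.08 for Col11a1 (edgeR adjusted p = 0.947 to 1). In females alone it was -0.26 for Col1a1 and 0.41 for Col5a1, and in males alone -1.05 and -0.84, with no member called. In the same comparison 11 of 12 macrophage markers had a lower response in KO, with a median difference of -1.05 and 0 called. The summed macrophage markers of KO males were 106 to 601 CPM in controls (median 153) and 149 to 349 with AngII (median 329). In KO females the sums were 144 to 265.5 CPM in controls and 126 to 172 with AngII. All 7 tested Schwann cell and neuron markers also had a lower response in KO (median -0.71, 0 called). The part of these cell types in the result was not tested. The response was thus called in WT and not in KO, and the difference between the 2 responses did not pass the test.

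KO and WT were also compared at each treatment. In control mice 0 of 6 members were called, where 0.221% of all genes were, and the 5 chains other than Col11a1 stood between -0.19 (Col5a1) and 0.17 (Col1a2). Without the KO control females, with males alone, they stood at 0.65 for Col1a1, 0.60 for Col1a2, 0.75 for Col3a1, 0.46 for Col5a1 and 0.51 for Col5a2, and Col11a1 at 0.08 in place of 1.37, with no member called. Macrophage markers had a higher mean in KO in 12 of 12 (median 1.24 over both sexes, 0.89 in females and 1.64 in males, 0 called). Their sums in control males were 106 to 601 CPM in KO (median 153) and 109 to 141 in WT. These ranges overlapped, and 1 KO library held the highest value. In control females the sums were 144 to 265.5 CPM in KO and 96.3 to 147 in WT. The part of the macrophage markers in these values was not tested. Under AngII 0 of 6 members were called, where 0.355% of all genes were. There Col1a1 had means of 1800 ± 616 CPM in WT and 1220 ± 329 in KO (SD, n = 6 each), a log2 difference of -0.54 ± 0.22 SE (edgeR unadjusted p = 0.0208, rank 649 of 16316 genes, adjusted p = 0.52). The AngII means of Col3a1 were 1781 ± 489 CPM in WT and 1238 ± 351 in KO, a log2 difference of -0.51 ± 0.22 SE (edgeR unadjusted p = 0.029, rank 839 of 16316 genes, adjusted p = 0.562). Of the 6 KO aortas, 3 lay below all 6 WT aortas for Col1a1 and 4 for Col3a1, so the genotypes overlapped for both. How many of all genes had such a partial separation was not counted. With limma-voom and quality weights both passed (Col1a1 -0.67, adjusted p = 0.024, and Col3a1 -0.61, adjusted p = 0.049), in a fit that called 200 genes.

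**Figure D3:**
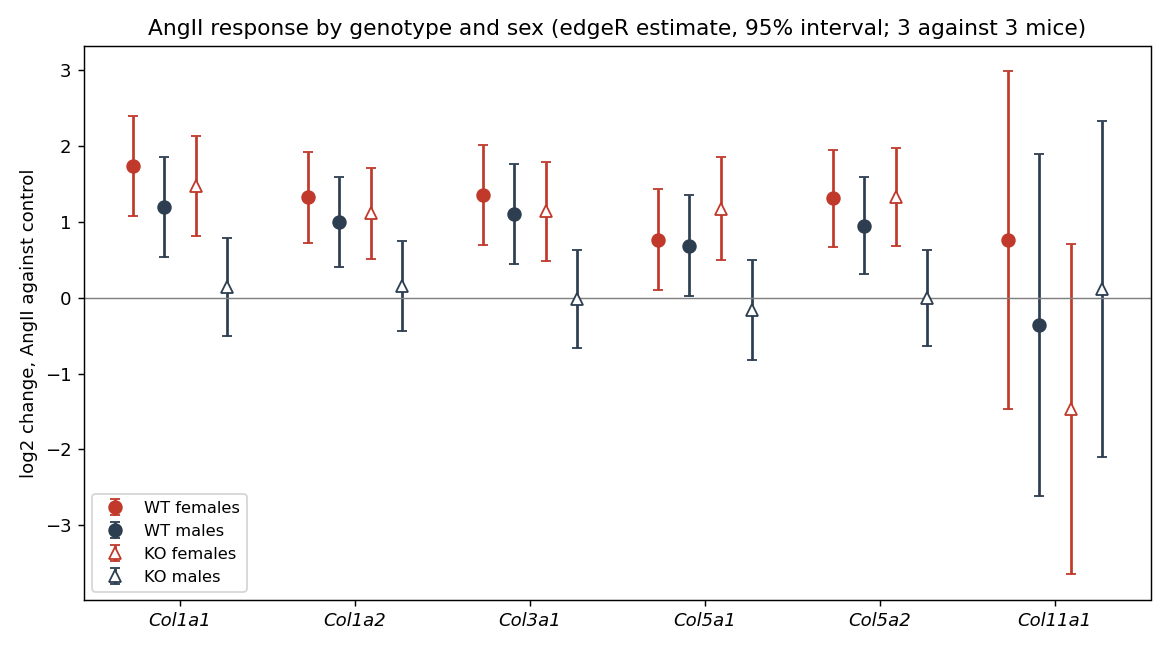
Log2 change with AngII of each fibrillar chain in WT and KO females and males, with the edgeR estimate as a point and its 95% interval as a bar (3 against 3 mice; the axis is a log2 scale). For the 5 chains other than Col11a1 the estimates lie between 0.68 and 1.73 in WT females, WT males and KO females and between -0.16 and 0.15 in KO males.

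Split by sex, the estimates in KO were larger in females than in males for 5 chains, a difference that did not pass after adjustment. In KO females the log2 changes were 1.47 for Col1a1, 1.11 for Col1a2, 1.14 for Col3a1, 1.17 for Col5a1 and 1.33 for Col5a2. In KO males they were 0.14, 0.15, -0.02, -0.16 and -0.0031 in the same order. No member was called in either sex, where edgeR called 0% of all genes. The difference between the sexes, males minus females, was -1.33 ± 0.45 SE for Col1a1, -0.96 ± 0.41 for Col1a2, -1.16 ± 0.45 for Col3a1, -1.33 ± 0.46 for Col5a1 and -1.33 ± 0.44 for Col5a2. These had unadjusted p values of 0.00505 (Col5a2) to 0.026 (Col1a2), as did 7.58% of all genes at p under 0.05. The edgeR adjusted p values were 0.5 to 0.608, with 0 of 6 members and 0% of all genes called. The median of this difference over all genes was -0.12. In WT the same difference lay between -0.54 (Col1a1) and -0.08 (Col5a1), with 0 members and 0% of genes called.

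Genotypes were then compared in the control mice of each sex. In control females KO stood below WT for the same 5 chains, by log2 differences of -0.28 (Col1a2) to -0.86 (Col5a1), with 0 members called where 0.815% of all genes were. In control males KO stood above WT by 0.48 (Col5a1) to 0.77 (Col3a1), with 0 members and 0% of all genes called. The difference of these differences, males minus females, was 1.23 ± 0.45 SE for Col3a1 and 1.34 ± 0.46 for Col5a1, and between 0.90 and 1.09 for Col1a1, Col1a2 and Col5a2 (edgeR adjusted p = 0.275 to 0.432, 0 members called and 0.0552% of all genes). The KO control females in these comparisons are the libraries that stood apart in depth and in receptor counts, and the part of those values in the result was not tested. In the same 3 libraries the summed smooth muscle markers were 6448 to 10640 CPM, against 10020 to 19900 in the other 21. All 8 tested smooth muscle markers were lower in KO than in WT control females, with 0 called. With AngII in KO females all 8 were higher, with 0 called. Tagln and Cnn1 lie on chromosome 9, which has no counts in this table. Their 0 in every library is therefore no measure of their expression.

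Between males and females, averaged over the 4 pairs of genotype and treatment, Col5a1 was higher in males by 0.59 ± 0.16 SE on the log2 scale (edgeR adjusted p = 0.0275). It was the only member called, where 5.27% of all genes were. The group means were 299 ± 42.3 CPM in females and 361 ± 170 in males for WT controls, 506 ± 84.5 and 579.6 ± 96.1 for WT with AngII, 164 ± 73.5 and 503 ± 149.8 for KO controls and 370.3 ± 118 and 450.2 ± 45.6 for KO with AngII (SD, n = 3 each). Males had the higher mean in 4 of 4 pairs, by most in KO controls. Without the KO control females, the mean of the other 3 pairs was 0.27 (edgeR adjusted p = 0.533), and the call was lost. It was also lost without WT control female 3, WT control male 1, WT AngII male 3 or KO control male 3, each left out alone (edgeR adjusted p = 0.0578 to 0.0711). In the same comparison 7 of 8 smooth muscle markers had a higher mean in males, with a median of 0.44 and 4 called, and 2 of 9 tested fibroblast markers were called higher in males. The part of these cell types in the Col5a1 difference was not tested.

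Col11a1 differed from the other chains in where it was highest. It stood at 27.4 CPM (43 counts) in KO control female 1 and at 11.1 CPM (42 counts) in KO AngII female 1, and between 0 and 5.40 CPM in the other 22 libraries. These 2 libraries had 1992 and 1073 receptor counts per 1000000 protein-coding counts. KO control female 3, with 1893 receptor counts, had a Col11a1 of 4.43 CPM (8 counts), and KO control female 2, with 1002, had 5.40 CPM (15 counts). The KO control females averaged 12.4 ± 12.98 CPM (SD, n = 3). KO against WT in control females was 2.67 ± 1.13 SE on the log2 scale (edgeR unadjusted p = 0.0242, rank 1631 of 16316 genes, adjusted p = 0.242). Over both sexes it was 1.37 ± 0.78 SE (edgeR adjusted p = 0.58), and in males 0.07 ± 1.09 SE (edgeR adjusted p = 1). Col11a1 was the lowest chain in these aortas, and the part of the receptor counts in its values was not tested.

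**Figure D4:**
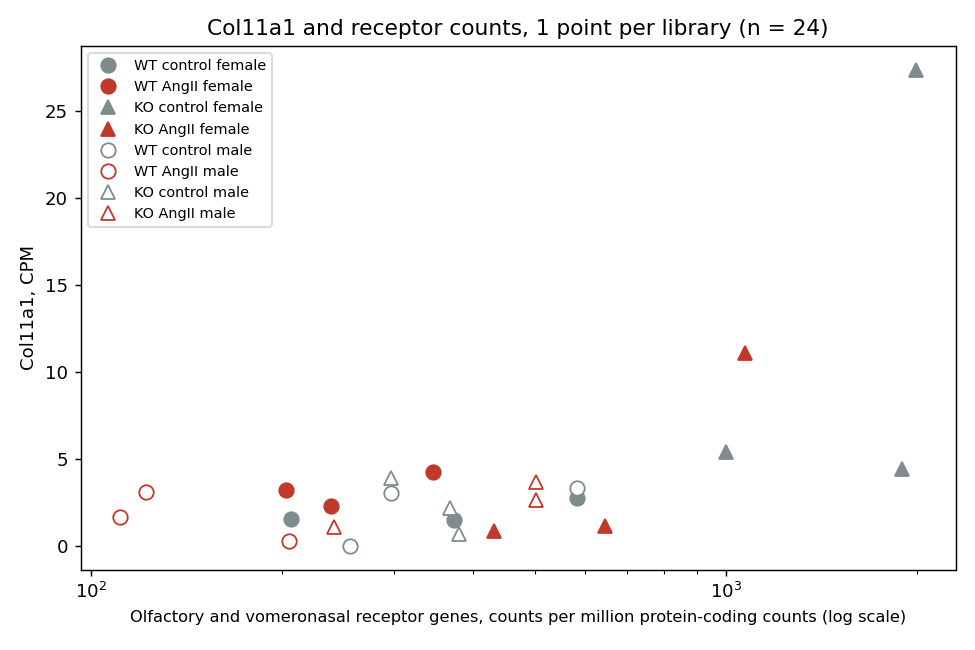
CPM of Col11a1 in each library (linear axis) against the summed counts of olfactory and vomeronasal receptor genes per 1000000 protein-coding counts (log axis). Colour and shape give the group as in the legend. The 2 libraries above 10 CPM, KO control female 1 and KO AngII female 1, have 1992 and 1073 receptor counts per 1000000, while KO control female 3, with 1893, lies at 4.43 CPM.

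The genes that act with fibrillar collagens were taken as 6 lists of 99 genes in all, of which 82 passed the count filter and 17 had 0 counts in every library. Of the other fibrillar chains Col2a1, Col11a2, Col24a1 and Col27a1, 0 of 4 were called in WT, KO or between genotypes. Col24a1 stood at 2.95 ± 3.55 CPM in WT controls and 0.497 ± 1.09 with AngII, and Col2a1, the cartilage chain, at 1.35 ± 1.60 and 0.677 ± 0.926 (SD, n = 6). Neither change passed (edgeR adjusted p = 0.601 and 0.948).

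Of the chaperones and enzymes of the endoplasmic reticulum that hydroxylate and fold procollagen, 14 of 15 tested had a higher mean with AngII in WT and 13 of 15 in KO, with 0 called in either and medians of 0.44 and 0.34 on the log2 scale. By sex the KO count was 13 of 15 in females (median 0.75) and 7 of 15 in males (median -0.00065). Plod1, which hydroxylates lysines, stood at 33.1 ± 6.99 CPM in WT controls and 50.05 ± 5.63 with AngII (log2 0.61 ± 0.23 SE, edgeR adjusted p = 0.528). Leprel1, the older symbol of the prolyl hydroxylase P3h2, stood at 19.9 ± 6.32 and 33.3 ± 9.58 CPM (log2 0.73 ± 0.27 SE, edgeR adjusted p = 0.501).

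Of the genes for propeptide processing and crosslinking, 9 of 10 tested had a higher mean with AngII in WT and 1 was called. That gene was Lox, the lysyl oxidase that starts crosslinks between fibril molecules, which rose from 102 ± 20.6 to 260.5 ± 177 CPM (log2 1.25 ± 0.26 SE, edgeR adjusted p = 0.0303). In KO it stood at 80.6 ± 21.6 and 114 ± 56.2 CPM (log2 0.43 ± 0.26 SE, edgeR adjusted p = 0.728). Of that list, 7 of 10 had a higher mean with AngII in KO (median 0.31), 6 of 10 in each sex, with medians of 0.55 in females and 0.05 in males. Under AngII Lox was lower in KO than in WT (log2 -1.15 ± 0.26 SE, edgeR adjusted p = 0.0374), 1 of 3 genes of the 6 lists to differ there.

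Among proteins that bind or coat fibrils, 16 of 18 tested had a higher mean with AngII in WT, with a median of 0.68, and 4 were called. Sparc, a collagen chaperone and fibril-binding glycoprotein, rose from 546 ± 67.3 to 1514 ± 527 CPM (log2 1.47 ± 0.22 SE, edgeR adjusted p = 0.0022). Postn, or periostin, rose from 636 ± 112 to 1755 ± 809.9 CPM (log2 1.44 ± 0.23 SE, edgeR adjusted p = 0.00235). Fn1, the fibronectin on which collagen fibrils are assembled, rose by 1.43 ± 0.31 SE (edgeR adjusted p = 0.0408). Col6a3, of the beaded-filament type VI collagen, rose by 1.01 ± 0.20 SE (edgeR adjusted p = 0.0232). In KO 14 of 18 had a higher mean, with a median of 0.30 and 0 called. By sex these were 13 of 18 in females (median 0.68) and 11 of 18 in males (median 0.10).

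Of the receptors of fibrillar collagen and the proteases that remove it, 0 of 12 were called in WT or in KO, with medians of 0.18 and 0.17. In KO females 10 of 12 had a higher mean (median 0.52) and in KO males 3 of 12 (median -0.10). Mmp2, a gelatinase, stood at 45.4 ± 15.3 CPM in WT controls and 71.6 ± 16.5 with AngII (log2 0.69 ± 0.26 SE, edgeR adjusted p = 0.505). Timp3, which inhibits metalloproteinases, stood at 474 ± 75.5 and 661 ± 165 CPM (log2 0.48 ± 0.18 SE, edgeR adjusted p = 0.528). Among TGF-beta genes and other regulators of collagen transcription, 16 of 23 tested had a higher mean with AngII in WT and 18 of 23 in KO, with medians of 0.18 and 0.15. By sex the KO counts were 17 of 23 in females (median 0.41) and 13 of 23 in males (median 0.09). Ctgf, the matricellular factor now called Ccn2, rose from 613 ± 164 to 1564 ± 489 CPM (log2 1.37 ± 0.26 SE, edgeR adjusted p = 0.0121).

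Ctgf was also lower in KO than in WT under AngII (log2 -1.14 ± 0.26 SE, edgeR adjusted p = 0.0329), as was the ligand Tgfb3 (166 ± 42.6 in WT against 95.02 ± 12.1 in KO CPM, log2 -0.79 ± 0.18 SE, edgeR adjusted p = 0.0369). No gene of the 6 lists passed the test of the difference between the KO and the WT response.

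**Figure D5:**
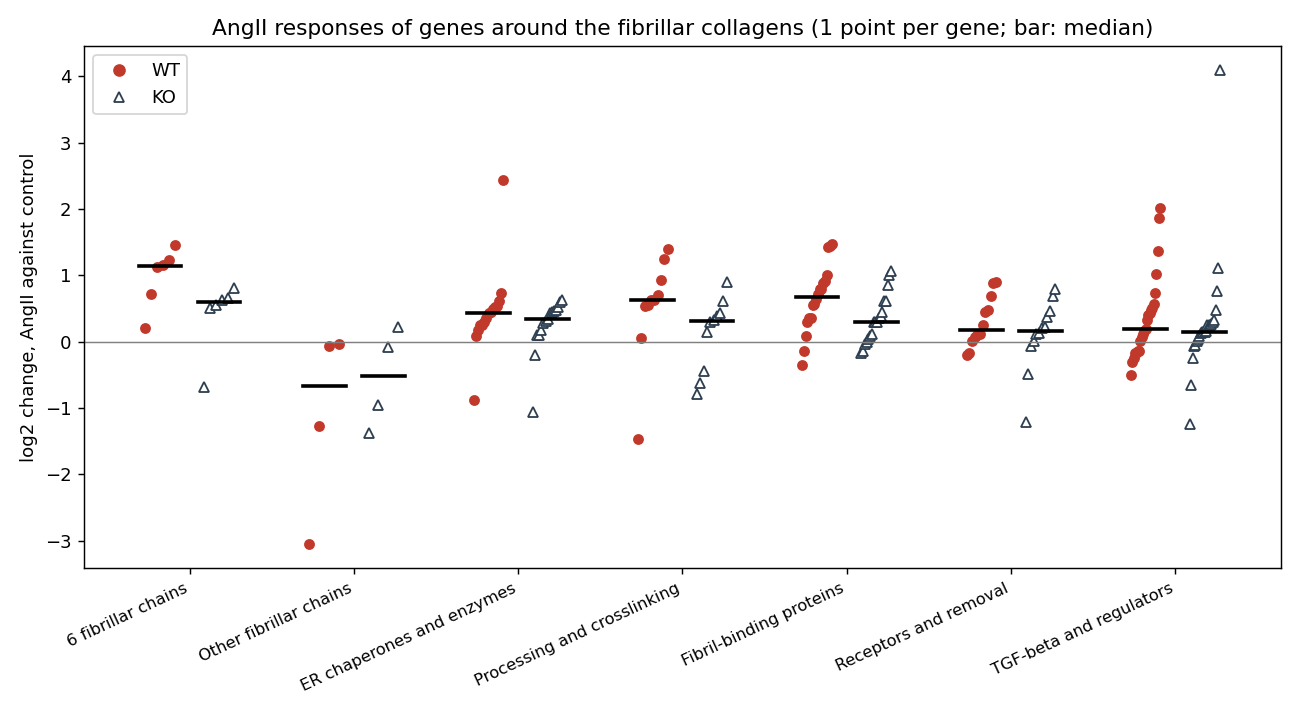
Log2 change with AngII of each tested gene in the 6 fibrillar chains and 6 lists of genes that act with them, in WT (filled circles) and KO (open triangles), with a bar at each list's median. The median of the fibrillar chains was 1.14 in WT and 0.59 in KO, and those of the other fibrillar chains were -0.67 and -0.52, and those of the remaining 5 lists lay between 0.15 and 0.68.

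Across all 24 libraries the 5 chains other than Col11a1 varied together, with Pearson's r of log2 CPM from 0.78 (Col5a1 with Col5a2) to 0.97 (Col1a1 with Col3a1). Col11a1 had r between -0.51 (with Col5a1) and -0.20 (with Col5a2). These values describe libraries that share group structure and scaling, and carry no test. Of 10667 other protein-coding genes, those most like the mean profile of the 6 members were Sparc (r = 0.95), Col6a3 (r = 0.95), Fbn1, the microfibril protein (r = 0.91), Col18a1 (r = 0.89) and Htra1, a secreted protease (r = 0.88). Sparc was the gene most like each of Col1a1, Col1a2, Col3a1 and Col5a2, with r from 0.93 to 0.96. Col5a1 had other neighbours: Col4a1 (r = 0.96), Hspg2, which encodes perlecan (r = 0.95), and Bmp1, which cleaves procollagen propeptides (r = 0.95). The genes alike were chosen over these same libraries, so their changes with AngII are not independent of the members' changes. With AngII in WT, Col18a1 rose by 1.33 ± 0.24 SE (edgeR adjusted p = 0.00957) and Htra1 by 0.99 ± 0.20 SE (edgeR adjusted p = 0.023). Fbn1 (0.81, adjusted p = 0.0645), Col4a1 (0.86, adjusted p = 0.0933), Hspg2 (0.57, adjusted p = 0.62) and Bmp1 (0.55, adjusted p = 0.528) missed the threshold of edgeR's test. For Col11a1 the highest r were 0.78 with Rnft2, 0.76 with Stab2 and 0.75 with Fras1, which stood at 0.15, -0.83 and 0.48 with AngII in WT (edgeR adjusted p of 0.987 to 1).

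Marker lists of cell types were read beside the WT response. Of 9 tested fibroblast markers 6 had a higher mean with AngII and 0 were called, with a median of 0.33. Dpep1 and Clec3b, on chromosomes with gaps in this table, were at 0 in every library. The fibroblast sums were 2007 to 3026 CPM in control females, 1792 to 2002 in control males, 1687 to 2657 in AngII females and 2475 to 2499 in AngII males. The fibroblast sums of females therefore overlapped between treatments, while those of males did not. Macrophage markers had a higher mean in 11 of 12, with a median of 0.65 and 0 called. They summed to 96.3 to 147 CPM in control females, 109 to 141 in control males, 142 to 260 in AngII females and 161 to 203 in AngII males, with none of the list at 0. Of the chondrocyte and osteoblast markers, 6 of 9 tested had a higher mean and 1, Acan, was called. They summed to 94.98 to 120 CPM in control females, 106 to 172 in control males, 118 to 243 in AngII females and 184 to 235.5 in AngII males, and Bglap2 was at 0 in all 4 groups. Smooth muscle markers summed to 12470 to 19460 CPM in the WT controls and 11670 to 19850 in the WT AngII aortas, so they overlapped. Endothelial markers had a lower mean in 8 of 9 tested (median -0.67) and Schwann cell and neuron markers in 7 of 7 (median -1.61). Within each sex the sums of both lists overlapped between treatments. In males the endothelial sums were 472 to 2063 CPM in controls and 445 to 579 with AngII. The Schwann cell and neuron sums of males were 20.7 to 138 CPM in controls and 12.4 to 38.4 with AngII. Lymphocyte markers were lower in 2 of 4 (median -0.13), adipocyte markers in 5 of 9 (median -0.03) and skeletal muscle markers in 2 of 4 (median -0.36). None of these 5 lists had a marker called. The part of these cell types in the collagen response was not tested.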

How the data were processed

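RNA from 24 mouse aortas was measured as read counts per gene. Per the submitters' processing notes the tools were cutadapt 1.8.1, TopHat2 2.0.14, Bowtie2 2.2.5 and featureCounts 1.4.6 on build mm10. Their settings, the strandedness and the annotation release are not given in the sources used here, and nothing says that PCR duplicates were removed. The authors deposited raw counts, 1 column per mouse, without normalization.

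The counts were tested with edgeR 4.0.16 (R 4.3.3): filterByExpr by group (minimum count 10), TMM scaling, 1 mean for each of 8 groups, glmQLFit and glmQLFTest, two-sided, with Benjamini-Hochberg adjustment over all 16316 genes kept and a threshold of 0.05. Contrasts average the female and the male contrast. CPM are computed over the TMM-scaled library size, and log2 CPM for correlations use a prior count of 2. The p-values measure the spread between these mice. The scripts were tested on simulated data. No 2 libraries of a group agreed within sampling noise (chi-square per degree of freedom 6.66 to 97.3). Alternatives used DESeq2 1.42.0, limma 3.58.1 (voom with quality weights), other scalings and filters, single sexes and left-out libraries. Those for the contrasts between the sexes were chosen after seeing the data.

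The members, the lists of related genes and the markers were chosen with earlier results of these data known. All 6 members are named. Of each list, genes called in any of the 5 comparisons over both sexes are named, up to 4 by adjusted p in WT, and where none was called, the 2 with the smallest p. Genes alike are the 3 with the highest Pearson r to a member and the 5 to the mean profile, with a mean log2 CPM of at least 1. Genes with systematic symbols were left out of these. Acan was named after its values were seen. One gene of the regulator list that the rule selects is not reported here. Chromosomes 9, X, Y and MT (6021 genes, 0 counts) were not analysed here. The markers Tagln, Cnn1 and Clec3b lie on chromosome 9. Some genes of chromosome 8 also had 0 counts in every library, among them Itgb1, Nfatc3, Dpep1, Cdh5 and Acta1 of the lists.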

Additional observations from a re-analysis of the deposited data

Results flagged for a closer look

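In 24 sets of 6 libraries (each of the 6 genes in each genotype and treatment), a library was marked where its gap to the nearest other value took an unusually large share of the range of its set. Chance alone marks about 1 set in 20. WT control male 2 was marked for Col5a2, with a log2 CPM of 7.65 (201 CPM), the highest of the 6 WT controls, which otherwise ran from 139 to 155 CPM. The same library had the lowest Col1a1 (459.9 CPM), Col1a2 (354 CPM), Col3a1 (584 CPM) and Col5a1 (206 CPM) of the WT controls. WT control male 1 was marked for Col11a1, with a log2 CPM of -0.86 from 0 counts. Its Col5a1, at 543 CPM, was the highest of the WT controls.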

How the results depend on the processing

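The count of 4 members called with AngII in WT was the same with DESeq2, upper-quartile factors, protein-coding library sizes, both other count filters, the groups compared alone and without the KO control females. It was 5 with limma-voom, 0 in females only and 0 in males only, and 1 to 4 with each library left out. In KO the count of 0 became 1 without a count filter (Col1a1 0.82, adjusted p = 0.0182), and under AngII the count of KO against WT became 2 with limma-voom. All-gene counts moved more than the members' did: from 34 to between 0 and 329 with AngII in WT, from 0 to at most 100 in KO, from 36 to between 0 and 357 for KO against WT in controls, from 58 to between 0 and 200 under AngII, and from 0 to at most 12 for the difference of responses. Between the sexes they moved from 0 to at most 75 for the KO responses, from 9 to between 0 and 360 for KO against WT in controls and from 860 to between 177 and 1500 for male against female. The cause was not tested.

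The log2 changes that turned sign were all of differences that had not been called. In females only, KO against WT in controls was -0.44 for Col1a1, -0.28 for Col1a2, -0.46 for Col3a1 and -0.37 for Col5a2, and the difference of responses was 0.41 for Col5a1 and 0.019 for Col5a2. In males only, the WT response of Col11a1 was -0.36, the KO responses were -0.021 (Col3a1), -0.16 (Col5a1), -0.0031 (Col5a2) and 0.11 (Col11a1), KO against WT in controls was 0.48 for Col5a1, and the difference of responses was 0.47 for Col11a1. Without the KO control females, the KO responses were -0.016 (Col3a1), -0.16 (Col5a1) and 0.12 (Col11a1), KO against WT in controls was 0.46 for Col5a1, and male against female was -0.16 for Col1a1 and Col3a1, -0.0050 for Col1a2 and -0.042 for Col5a2. With limma-voom, KO against WT under AngII was -0.16 for Col11a1. With each library left out, KO against WT in controls ran from -0.033 to 0.215 (Col1a1), -0.017 to 0.27 (Col3a1), -0.38 to 0.015 (Col5a1) and -0.042 to 0.15 (Col5a2). Col11a1 ran from -0.18 to 0.45 for the WT response and from -0.57 to 0.87 for KO against WT under AngII, and the KO ratio of Col5a1 to Col5a2 from -0.19 to 0.020. The call of Col5a1 between the sexes held in 20 of 24 such fits.

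With the replicate number as a block, 4 members were called with AngII in WT and 0 in the other comparisons of treatment or genotype, all-gene counts were 24 against 34 in WT, and the WT response of Col11a1 was -0.083. Same-numbered libraries had weakly correlated deviations, above 0.1 in 1 of 24 pairs (range -0.02 to 0.13). Of 24 libraries, 10 correlated best with their own number in the other treatment, out of 3 numbers each. These values cannot exclude a shared litter or batch. Groups of 3 mice and 1523328 to 6352365 counts limit what these comparisons can detect, most of all for Col11a1.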
